A study of Mus musculus with 12 samples.

Results

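Transcripts of 38 genes that mark or act in endothelial cells were followed in whole kidneys of mice with and without A1cf. The genes were taken by name from a table of read counts for 46882 gene names, in which all 38 were found. All 38 passed the filter on low counts and were tested together with the rest of 16910 genes. The kidneys came from C57BL/6 mice aged 6 to 8 weeks, either wild type (WT, n = 6) or labelled A1cf -/- (here A1cf KO, n = 6), with no treatment named. A1cf encodes an RNA-binding protein known as a cofactor of cytidine-to-uridine mRNA editing. How the A1cf allele was made is not stated in the labels.

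The animal numbers in the sample names fall into 2 runs, 573 to 602 and 776 to 780, and the labels do not say what the numbers stand for. WT animals 573, 590 and 601 and A1cf KO animals 574, 584, 588, 591 and 602 belong to the low series. WT animals 776, 777 and 778 and A1cf KO animal 780 belong to the high series. The series is therefore uneven between the genotypes, and each comparison is given for genotype and for series. Where values are listed for a gene, they follow this order of animals.

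Endothelial cells line every blood vessel. In the kidney they form the fenestrated capillaries of the glomerulus, the peritubular capillaries around the tubules, the vasa recta of the medulla, and arteries and veins. They depend on VEGF-A made by podocytes and tubule cells, which acts through the receptors Kdr and Flt1, and on angiopoietins, which act through Tek. Transcription factors of the ETS family (Erg, Ets1) and the SOXF group (Sox7, Sox17, Sox18) are known to set endothelial identity, and Notch ligands, ephrin-B2 and connexins mark arterial vessels.

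Libraries held between 26671705 and 52899139 counts, and the 38 genes together took 0.0579% to 0.110% of them. Single genes had between 28 and 5732 counts in a library. Levels are given as CPM, counts divided by the library total after TMM scaling. A1cf was at 45.2 to 65.7 CPM in WT and at 2.95 to 6.11 CPM in A1cf KO, so each library matched its genotype label. In whole tissue, fewer endothelial cells and less RNA per endothelial cell cannot be told apart.

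The endothelial genes as a whole differed by animal series and not detectably by genotype alone. Their summed level was 711, 586 and 593 CPM in the low-series WT kidneys and 836, 887, 701, 759 and 707 CPM in the low-series A1cf KO kidneys. It was 1035, 1037 and 912 CPM in the high-series WT kidneys and 1066 CPM in A1cf KO 780. All 4 high-series libraries thus lay above all 8 low-series libraries, while the genotypes overlapped over most of their range (mean sums of 813 ± 210 CPM for the WT and 826 ± 138 CPM for the A1cf KO kidneys, SD over 6 libraries). A1cf KO 780 had the highest level of 16 of the 38 genes, and WT 777 that of 9. WT 590 had the lowest level of 14 and WT 601 that of 12. For 14 genes the 4 highest libraries were the 4 of the high series, for 12 genes 3 of them were, and only for Ece1 was none. Total counts were 26671705 to 47551728 in the high series and 35129972 to 52899139 in the low series, and the part of depth in these differences was not tested.

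**Figure D1:**
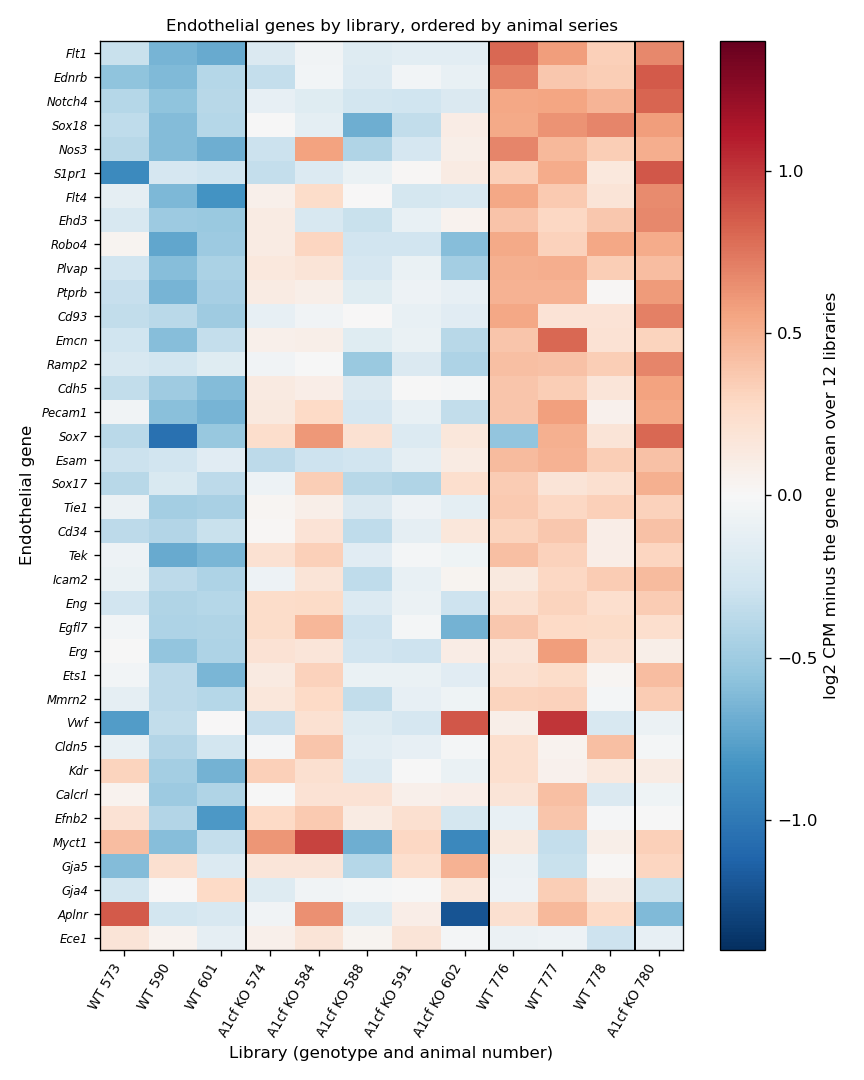
Log2 CPM of each of the 38 endothelial genes (rows, ordered by the series difference) minus the mean of that gene over the 12 libraries (columns, red higher and blue lower), with black lines between low-series WT, low-series A1cf KO, high-series WT and A1cf KO 780. The 4 columns on the right are red for most genes down to Mmrn2, WT 590 and WT 601 are blue for most of them, and in the rows from Vwf to Ece1 red and blue are mixed over both series.

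Between the series, 21 of the 38 genes were higher in animals 776 to 780 in the edgeR quasi-likelihood test with genotype as a covariate (adjusted p under 0.05), and 0 were lower. Of all genes tested, 2.1% were called higher. At an unadjusted p under 0.05, 28 of the 38 were higher, against 9.18% of all genes, and 1, Ece1, was lower. The median log2 difference of the 38 genes was 0.56, against -0.0062 over all genes tested, and 35 of the 38 were positive, against 48.6% of all genes. For 14 of the 38 genes the 4 high-series libraries did not overlap the 8 low-series libraries, which held for 1.86% of all genes tested. Within WT alone, 15 of the 38 genes were called higher in animals 776 to 778 than in 573 to 601 (n = 3 each, 0.656% of all genes tested), with a median log2 difference of 0.66. Without A1cf KO 780 the high series held only WT kidneys. The series term then again compared WT animals 776 to 778 with 573 to 601. The low-series A1cf KO kidneys entered the estimate of spread but not this difference. That fit called 13 of the 38 higher, against 0.683% of all genes tested, and is not a result separate from WT alone.

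Between the genotypes, edgeR without a covariate called 0 of the 38 genes, where 8 of all genes tested (0.0473%) passed. At an unadjusted p under 0.05 there were again 0 of the 38, against 10.4% of all genes, and DESeq2 called 0 of the 38 (1.01% of all genes). Log2 fold changes, A1cf KO relative to WT, ran from -0.38 (Aplnr) to 0.54 (Sox7), with a median of 0.05 against -0.0030 over all genes, and 25 of 38 were positive against 49.2%. The genotypes overlapped for all 38 genes, while they did not for 0.84% of all genes. The lowest exact two-sided permutation p among the members was that of Sox7 (p = 0.048 over all divisions of the libraries into groups of 6, adjusted p = 0.48 over all genes tested).

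With the series as a covariate the genotype differences of the endothelial genes were larger, but none passed. In that fit 36 of the 38 log2 fold changes were positive, with a median of 0.26 against -9.9e-04 over all genes. At an unadjusted p under 0.05, 17 of the 38 were higher in A1cf KO and 0 lower, and 6.53% of all genes were higher by this rule. Over all genes tested 0 of the 38 passed (0.142% of all genes did), and the smallest adjusted p were 0.087 for Cdh5, 0.089 for Ednrb, 0.089 for Cd93 and 0.092 for Notch4. Within animals 573 to 602 alone (3 WT, 5 A1cf KO) the median was 0.32, with 35 of 38 positive and 19 at an unadjusted p under 0.05, all higher (4.04% of all genes were higher by this rule). There too 0 of the 38 passed (0.0402% of all genes). The summed levels of the 2 genotypes overlapped in these animals, at 586 to 711 CPM in WT and 701 to 887 CPM in A1cf KO. All 38 genes were measured in the same 8 libraries, so these counts of genes are not 38 separate results. In that series the 5 A1cf KO libraries lay above the 3 WT libraries for Flt1, Cdh5, Sox7, Notch4, Ednrb, Cd93 and Ptprb, 7 genes of 38, against 2.57% of all genes tested. The interaction term is the genotype log2 difference in the high series minus that in the low series. By edgeR its median over the 38 genes was -0.20, against -0.021 over all genes, and 6 of 38 were positive, against 46.5%. By DESeq2 8 of 38 were positive and by limma-voom 9, with medians of -0.19 and -0.18. The genotype difference of most members was thus lower in the high series, where it rests on 1 A1cf KO library. The genotype difference was not shown to differ between the series, since the interaction term passed for 0 of the 38 genes by edgeR (0% of all genes), by DESeq2 or by limma-voom. At an unadjusted p under 0.05 it also held 0 of the 38, against 3.81% of all genes, and the high series has only 1 A1cf KO library.

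**Figure D2:**
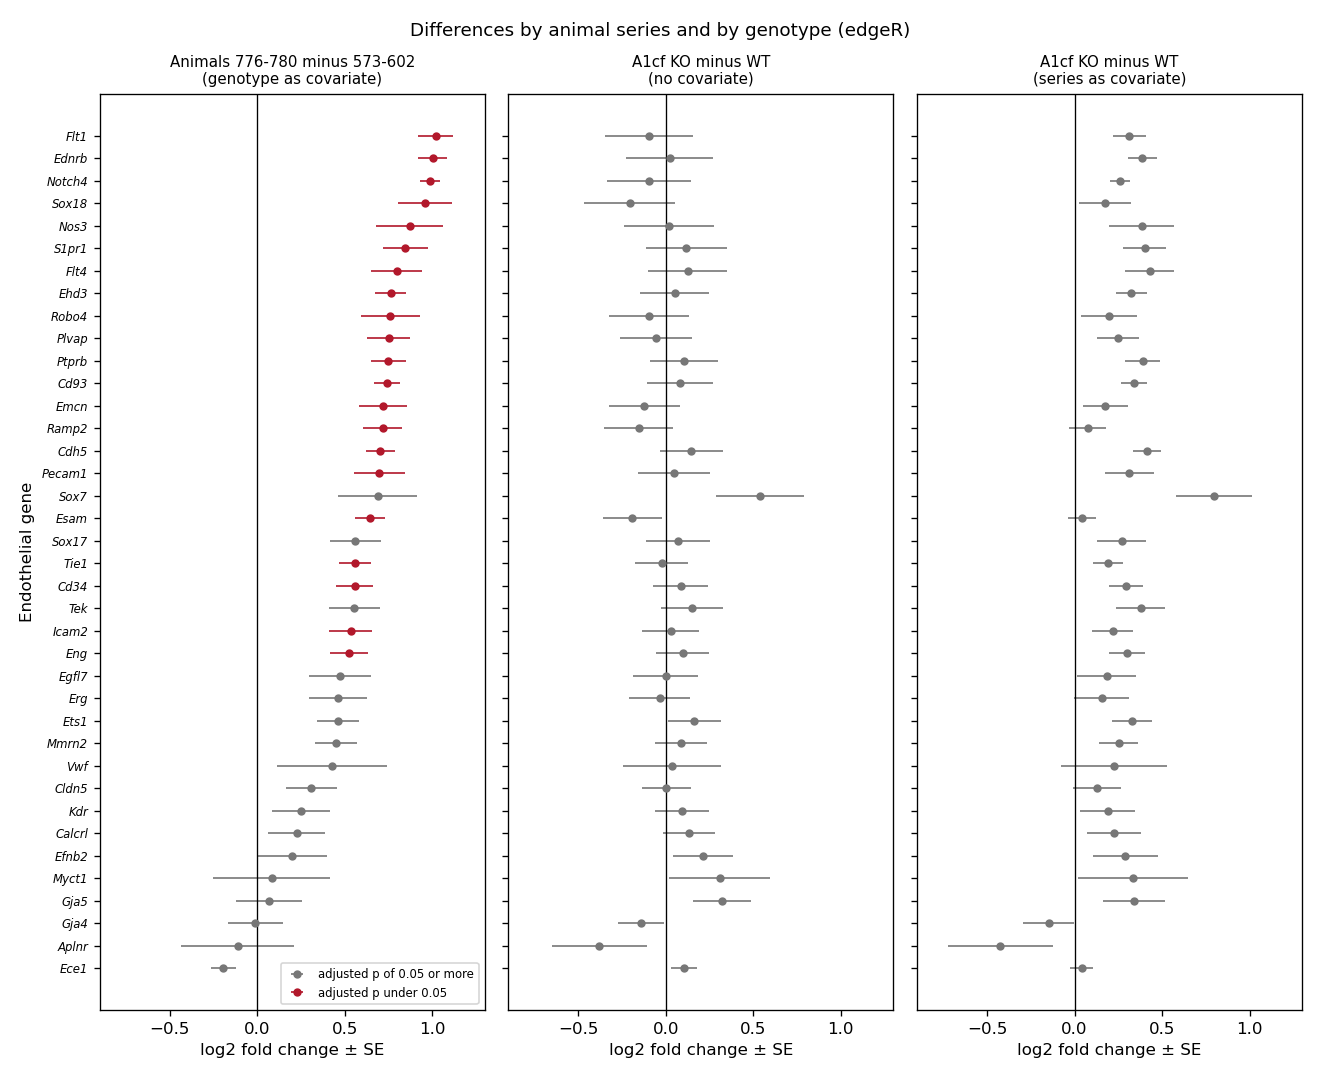
Log2 fold change ± SE (x axis, edgeR) of the 38 endothelial genes (y axis) for the animal series, for genotype without a covariate and for genotype with the series as covariate, with red for an adjusted p under 0.05 and grey for the rest. The series panel holds 21 red points, all to the right of 0. Both genotype panels hold none, and the points of the right panel sit further to the right (median 0.26) than those of the middle panel (median 0.05).

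Among the receptor tyrosine kinases, Flt1 had the largest series difference. It is the VEGF receptor that binds VEGF-A tightly and can limit its supply. Flt1 (chromosome 5, 147561604 to 147726011, minus strand) was at 32.4, 25.7 and 24.8 CPM in low-series WT and at 35.0, 38.9, 35.7, 36.3 and 36.5 CPM in low-series A1cf KO. It was at 70.1, 60.2 and 50.9 CPM in high-series WT and at 64.3 CPM in A1cf KO 780. Every high-series kidney lay above every low-series kidney, by 2.03-fold in the fit (log2 1.02, SE 0.099, adjusted p = 1.3e-04). The genotype log2 fold change was -0.10 (SE 0.25) without a covariate and 0.31 (SE 0.095) with the series as covariate.

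Kdr, the receptor through which VEGF-A drives endothelial growth and survival, did not pass. Kdr (chromosome 5, 75932827 to 75978458, minus strand) was at 35.7, 20.8 and 18.2 CPM in low-series WT and at 36.2, 33.5, 25.2, 28.6 and 27.1 CPM in low-series A1cf KO. High-series values were 34.0, 30.0 and 31.8 CPM in WT, with 31.1 CPM in A1cf KO 780, inside the low-series range (series log2 0.25, SE 0.17, adjusted p = 0.45). Per length of exon sequence (RPKM), the ratio of Kdr to Flt1 was 1.06 to 1.65 in the low series and 0.724 to 0.936 in the high series, without overlap. This ratio was chosen after the values were seen, and the difference between the genes was not tested.

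Of the other receptors, Flt4, which binds VEGF-C and also marks lymphatic and fenestrated endothelium, was higher in the high series (7.10 ± 1.68 and 10.95 ± 1.57 CPM, SD, n = 8 and 4, log2 0.80, adjusted p = 0.0084). Tie1, a partner of Tek, was higher as well (25.1 ± 3.43 and 34.9 ± 0.815 CPM, log2 0.56, adjusted p = 0.0040). Tek itself, the angiopoietin receptor, was at 22.0 ± 5.28 and 28.8 ± 2.71 CPM (log2 0.55, adjusted p = 0.059) and did not pass.

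The promoters of Flt1 and Notch4, which were higher in the high series by similar amounts, are printed beside those of Kdr and Gja4, which were not called, so that their sequence can be set against their counts. These 4 were chosen after the values were seen. They are the 250 bases before the RefSeq start in GRCm38.p6, 5′ to 3′ on the strand of the gene, with capitals for the ETS letters AGGAAG on either strand (CTTCCT where the match is on the other strand). They lie at chr5:147726012-147726261 (minus strand) for Flt1, chr17:34564045-34564294 (plus strand) for Notch4, chr5:75978456-75978705 (minus strand) for Kdr and chr4:127314040-127314289 (minus strand) for Gja4.
Flt1: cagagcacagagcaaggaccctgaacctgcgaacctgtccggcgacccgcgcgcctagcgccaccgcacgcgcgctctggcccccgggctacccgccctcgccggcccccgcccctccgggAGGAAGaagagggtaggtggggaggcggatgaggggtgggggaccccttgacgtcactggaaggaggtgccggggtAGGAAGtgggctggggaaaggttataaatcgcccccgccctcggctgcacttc
Notch4: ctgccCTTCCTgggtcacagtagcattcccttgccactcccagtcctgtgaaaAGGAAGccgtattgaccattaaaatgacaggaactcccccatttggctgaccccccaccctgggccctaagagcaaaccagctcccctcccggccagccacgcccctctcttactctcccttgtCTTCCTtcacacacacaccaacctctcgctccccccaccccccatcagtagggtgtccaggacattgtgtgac
Kdr: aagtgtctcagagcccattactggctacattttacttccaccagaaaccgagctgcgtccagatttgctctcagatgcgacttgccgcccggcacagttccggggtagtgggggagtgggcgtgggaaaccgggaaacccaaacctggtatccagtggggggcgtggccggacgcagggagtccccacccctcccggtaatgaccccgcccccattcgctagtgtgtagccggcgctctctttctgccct
Gja4: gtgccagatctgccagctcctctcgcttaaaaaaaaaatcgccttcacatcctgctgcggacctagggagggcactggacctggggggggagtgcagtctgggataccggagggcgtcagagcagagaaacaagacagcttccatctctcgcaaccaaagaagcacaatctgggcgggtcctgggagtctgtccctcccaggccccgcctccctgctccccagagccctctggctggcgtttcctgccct
Flt1 has 2 matches in this window and Notch4 has 3, while Kdr and Gja4 have 0. The table of promoters held 21 of the 38 genes, each with 300 bases around 1 or more starts. AGGAAG was in a window of 13 of the 21 genes, and in 50% of their 28 windows against 35.4% of all 32851 windows. It was in 8 of the 10 genes past the series threshold and in 5 of the 11 others, a description of few genes. Ednrb and Flt4 passed the series threshold and had no match, while Egfl7, Calcrl, Gja5, Myct1 and Erg did not pass and had one. The 4 printed promoters thus show a sharper contrast than the 21 genes do, and a link between these letters and the series difference was not tested. The longer FOX:ETS core AACAGGAA, which includes the ETS letters AGGAA, was in 3 member windows (10.7%, against 2.65% of all windows), those of Egfl7, Calcrl and Emcn. The SOX letters AACAAT were in 4 (14.3%, against 10.7%).

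Of the 11 genes for junctions, adhesion and surface glycoproteins, 6 were higher in the high series. Cdh5, the cadherin of endothelial adherens junctions, was at 14.9, 13.4 and 12.4 CPM in low-series WT and at 20.6, 20.05, 16.4, 18.8 and 18.5 CPM in low-series A1cf KO. It was at 24.6, 24.0 and 21.2 CPM in high-series WT and at 27.9 CPM in A1cf KO 780. The 4 sets of kidneys formed rising steps with no overlap between neighbouring sets, and the series log2 difference was 0.70 (SE 0.085, adjusted p = 3.9e-04). The genotype log2 fold change with the series as covariate was 0.42 (SE 0.081), the smallest adjusted p of any of the 38 genes in that fit. Emcn, a sialomucin of capillaries and veins, ranged from 27.0 to 43.3 CPM in the low series and from 46.9 to 71.4 CPM in the high series (log2 0.72, adjusted p = 0.011). Esam, an adhesion molecule of tight junctions, showed a step by series with little spread (24.2 ± 2.69 and 37.3 ± 1.45 CPM, adjusted p = 8.4e-04), and its genotype log2 fold change with the covariate was only 0.04. Pecam1, an adhesion molecule at endothelial contacts (log2 0.70), Cd34, a sialomucin of capillaries (0.56), and Icam2, an adhesion molecule for leukocytes (0.54), were also higher, with adjusted p of 0.020, 0.010 and 0.031.

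The other 5 genes of this group did not pass. Gja4, a connexin of arterial endothelium, was at 2.52, 3.03 and 3.65 CPM in low-series WT and at 2.65, 2.91, 2.96, 3.01 and 3.37 CPM in low-series A1cf KO. High-series values of Gja4 were 2.87, 3.82 and 3.29 CPM in WT, with 2.44 CPM in A1cf KO 780, overlapping the low series on both sides (series log2 -0.01, SE 0.16, adjusted p = 0.98). Gja5, another arterial connexin, was at 3.48 ± 0.839 and 3.35 ± 0.595 CPM (log2 0.07). Exons of Gja5 share 165 bases with Gpr89 (mean 27.6 CPM) on the opposite strand, which counting without strand cannot separate. Vwf, the clotting factor of Weibel-Palade bodies, was at 2.11 to 7.28 CPM across libraries, with WT 777 (7.28 CPM) and A1cf KO 602 (6.67 CPM) apart from the rest. Cldn5, a tight-junction claudin (log2 0.31, adjusted p = 0.27), and Mmrn2, a matrix glycoprotein of vessels (log2 0.45, adjusted p = 0.058), had positive differences that did not pass.

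**Figure D3:**
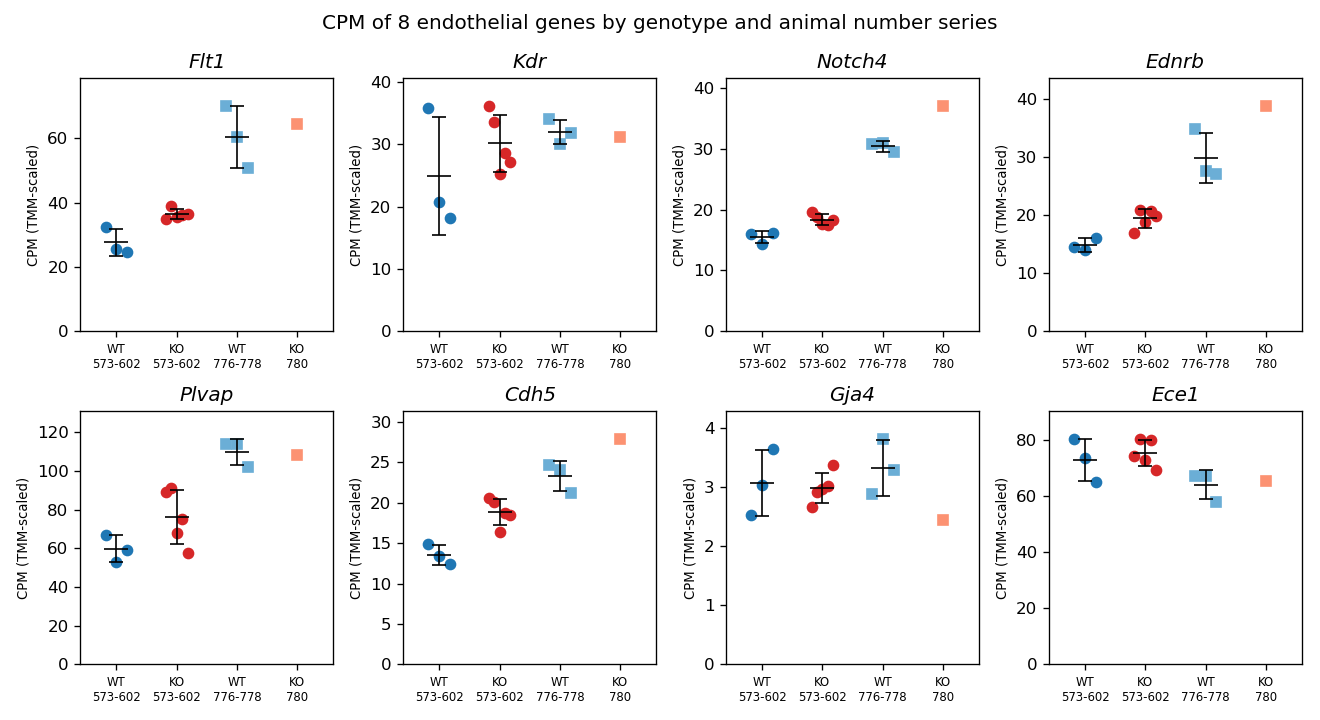
CPM (y axis, from 0) of 8 endothelial genes in each library, for low-series WT (dark blue), low-series A1cf KO (dark red), high-series WT (light blue squares) and A1cf KO 780 (light red square), with mean and SD in black where a set has more than 1 library. Flt1, Notch4, Ednrb, Plvap and Cdh5 stand higher in every high-series library than in any low-series library, the high-series values of Kdr lie inside its low-series range, and those of Gja4 and Ece1 overlap theirs.

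Of the 5 transcription factors, Sox18, a SOXF factor of developing and activated vessels, was the only one called. It was at 2.87, 2.40 and 2.78 CPM in low-series WT and 3.66, 3.35, 2.27, 2.89 and 3.94 CPM in low-series A1cf KO. High-series values were 5.30, 5.65 and 5.87 CPM in WT, with 5.48 CPM in A1cf KO 780, above all others (log2 0.96, SE 0.15, adjusted p = 0.0037). Sox7 had the highest genotype fold change of the 38 genes, at 1.31 ± 0.523 CPM in WT against 1.92 ± 0.472 CPM in the A1cf KO kidneys (SD, 6 of each, log2 0.54, SE 0.25, adjusted p = 0.49). It rests on 28 to 108 counts per library. With the series as covariate its genotype log2 fold change was 0.80 (SE 0.22, adjusted p = 0.17). Sox7 (series log2 0.69, adjusted p = 0.12), Sox17, which acts in arterial identity (log2 0.56, adjusted p = 0.055), Ets1 (0.46, 0.054) and Erg (0.46, 0.15), which maintains quiescent endothelium, had positive series differences that did not pass. Ets1 is also made by lymphocytes. Exons of Sox17 share 804 bases with Gm37587 on the other strand, which had few counts (mean 0.011 CPM).

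Of the 5 genes for guidance, Notch and TGF-beta signalling, 3 were higher in the high series. Notch4, the Notch receptor confined mostly to endothelium, had the smallest adjusted p of the 38 genes for series. It was at 16.003, 14.3 and 16.1 CPM in low-series WT, at 19.5, 18.8, 17.7, 17.4 and 18.3 CPM in low-series A1cf KO, at 30.8, 30.9 and 29.4 CPM in high-series WT and at 37.1 CPM in A1cf KO 780. Within both series the A1cf KO values of Notch4 lay above the WT values, and the step between the series was larger (log2 0.99, SE 0.059, adjusted p = 2.1e-06). Its genotype log2 fold change was -0.10 without a covariate and 0.26 (SE 0.057) with the series as covariate. Robo4, a guidance receptor that stabilises vessels (log2 0.76, adjusted p = 0.025), and Eng, the TGF-beta coreceptor endoglin (log2 0.52, adjusted p = 0.018), were also called. Egfl7, a secreted factor that hosts a microRNA gene, was at 35.2 ± 9.53 and 46.2 ± 2.06 CPM (adjusted p = 0.17). Efnb2, the arterial ephrin ligand, was at 7.61 ± 1.93 and 7.97 ± 1.31 CPM (adjusted p = 0.63). Exons of Eng share 61 bases with Fpgs (mean 91.0 CPM) on the other strand. Those of Egfl7 share 64 bases with Agpat2 (mean 35.0 CPM) on the other strand and 264 bases with Gm20532 (mean 0 CPM) on the same strand.

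Of the 7 G protein-coupled receptors, partners and vasoactive enzymes, 4 were higher in the high series. Ednrb, the endothelin receptor that clears endothelin and drives nitric oxide release, was at 14.4, 13.96 and 16.1 CPM in low-series WT and at 16.97, 20.8, 18.7, 20.7 and 19.9 CPM in low-series A1cf KO. It was at 34.7, 27.7 and 27.1 CPM in high-series WT and 38.8 CPM in A1cf KO 780, again in steps without overlap (log2 1.00, SE 0.085, adjusted p = 4.7e-05). S1pr1, the sphingosine-1-phosphate receptor that tightens the endothelial barrier, was at 13.3 ± 2.51 and 21.6 ± 4.76 CPM (log2 0.85, adjusted p = 0.0022). Ramp2, which pairs with Calcrl to form the adrenomedullin receptor, was at 7.07 ± 0.838 and 11.4 ± 1.23 CPM (adjusted p = 0.0026). Calcrl itself was at 5.38 ± 0.928 and 5.85 ± 1.13 CPM (adjusted p = 0.50). Ramp2 shares 1103 bases of exon sequence with Vps25 on the same strand. Nos3, the endothelial nitric oxide synthase, was at 4.40 ± 1.41 and 7.14 ± 0.713 CPM (log2 0.87, adjusted p = 0.025). Exons of Nos3 share 1040 bases with Gm15587 and 294 bases with Atg9b on the other strand, both with few counts (means of 0.086 and 0.17 CPM). Aplnr, the apelin receptor, was at 2.19 ± 0.907 and 2.29 ± 0.652 CPM.

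Ece1, which cuts big endothelin to endothelin, had a negative series difference. It was at 80.2, 73.4 and 65.0 CPM in low-series WT, at 74.2, 80.2, 72.9, 79.9 and 69.2 CPM in low-series A1cf KO, at 67.0, 67.2 and 58.0 CPM in high-series WT and at 65.2 CPM in A1cf KO 780. The series overlapped, and the log2 difference of -0.19 (SE 0.072) did not pass (adjusted p = 0.16). Ece1 is also made by cells other than endothelium.

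Of the remaining 5 genes, 4 were higher in the high series. Plvap, which forms the diaphragms of fenestrated capillaries, was at 66.8, 53.1 and 59.3 CPM in low-series WT, at 88.9, 91.3, 68.1, 75.2 and 57.8 CPM in low-series A1cf KO, at 114, 114 and 102 CPM in high-series WT and at 108 CPM in A1cf KO 780. Its lowest high-series value lay above its highest low-series value (log2 0.75, SE 0.12, adjusted p = 0.0043). Ehd3, a membrane-trafficking ATPase that marks glomerular endothelium, was at 17.8 ± 2.90 and 27.7 ± 3.33 CPM (adjusted p = 3.7e-04), without overlap. Cd93, a surface lectin of vessels (log2 0.74, adjusted p = 1.8e-04), and Ptprb, the phosphatase that acts on Tek (log2 0.75, adjusted p = 0.0011), were called as well. Myct1, a membrane protein of vessels, ranged from 1.29 to 4.66 CPM in the low series alone and was not called (log2 0.08, adjusted p = 0.93).

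Levels of different members were compared per length of exon sequence. In WT, Plvap had the highest level (42.1 ± 14.005 RPKM, SD, n = 6), followed by Eng (15.4 ± 3.61), Ece1 (12.9 ± 1.43), Egfl7 (10.9 ± 2.61) and Esam (10.6 ± 2.69). The lowest were Vwf (0.238 ± 0.112), Sox7 (0.397 ± 0.159), Gja5 (0.532 ± 0.102) and Aplnr (0.680 ± 0.203). Of the 37 pairs of neighbours in this order, 36 had overlapping ranges over the WT libraries, and only Plvap stood clear of the next gene. The same 5 genes led in the same order in A1cf KO and in the low series, but in the high series Esam (13.02 ± 0.506 RPKM) and Egfl7 (12.9 ± 0.576) came before Ece1 (12.1 ± 0.814). In A1cf KO, Plvap was at 40.5 ± 8.996 RPKM.

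Other genes of vascular signalling were followed in 5 lists of partners of the members. No gene of the 5 partner lists passed for genotype. Of the VEGF and angiopoietin ligands and coreceptors, 1 of 10 was higher in the high series, the coreceptor Nrp2 (15.5 ± 2.66 and 19.95 ± 1.60 CPM, log2 0.48, adjusted p = 0.023), and the list median was 0.08. Of 15 Notch, ephrin and BMP genes 0 passed for series, with a median of 0.19. At an unadjusted p under 0.05 by edgeR, 3 of the 15 were higher, against 9.18% of all genes. Of 12 further endothelial transcription factors, 1 was higher, Epas1, a hypoxia-inducible factor (log2 0.28, adjusted p = 0.049), with a median of 0.30. Of 14 vasoactive genes, 4 were higher, namely Ramp3, another receptor partner of Calcrl (log2 0.79, adjusted p = 0.0022), Edn1, the endothelin-1 precursor (0.72, 0.028), Ptgis, prostacyclin synthase (0.72, 0.029), and S1pr3, a sphingosine-1-phosphate receptor (0.55, 0.0498). Of 14 tested adhesion, junction and coagulation genes, 4 were higher, namely Adgrf5 (69.9 ± 7.33 and 113 ± 15.9 CPM, log2 0.75, adjusted p = 5.8e-04) and Adgrl4 (0.70, 0.0019), both adhesion receptors of endothelium, Thbd, the thrombin receptor thrombomodulin (0.96, 0.0016), and Jam2, a junction molecule (0.68, 0.045). Sele and Selp, the inducible selectins, had too few counts to be tested. No gene of the 5 lists was called lower.

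The genotype log2 fold changes with the smallest unadjusted p in each partner list, without a covariate, were 0.21 for Nrp1, -0.62 for Pgf and -0.12 for Vegfb among the ligands and coreceptors. They were 0.37 for Heyl, -0.25 for Efna1 and 0.22 for Notch1 among the Notch and ephrin genes, and 0.33 for Mef2c, 0.22 for Nr2f2 and 0.37 for Klf4 among the transcription factors. Among the vasoactive genes they were -0.38 for Sphk1, -0.31 for Apela and -0.25 for Edn3, and among the adhesion and coagulation genes -0.42 for Tfpi, 0.28 for Vcam1 and 0.31 for Icam1. They point both ways, and none passed over all genes tested.

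Markers of other kidney cells were followed in the same libraries, and their part in the endothelial values was not tested. Of 10 podocyte markers, 2 were higher in the high series (Synpo, log2 0.57, and Cdkn1c, 0.46, with a list median of 0.35). The summed podocyte level was 225 to 319 CPM in the low series and 264 to 386 CPM in the high series, so the series overlapped. Of 10 markers of pericytes, mesangium and smooth muscle, 4 were higher (Rgs5, Des, Pdgfrb and Tagln, log2 0.50 to 0.60, list median 0.33), with a sum of 178 to 260 CPM and 234 to 315 CPM. At an unadjusted p under 0.05 by edgeR, 7 of the 10 podocyte and 6 of the 10 pericyte, mesangium and smooth muscle markers were higher. By this rule 28 of the 38 endothelial genes and 9.18% of all genes were higher. In each of the 2 marker lists 9 of 10 differences were positive, so higher values in the high series were not particular to endothelial genes. Rgs5, a pericyte gene, also passed for genotype with the series as covariate (log2 0.50, adjusted p = 0.0029). No leukocyte, blood, lymphatic or fat marker passed for series. Leukocyte sums were 78.6 to 97.5 CPM and 83.1 to 97.2 CPM, blood sums 148 to 431 CPM and 190 to 399 CPM, lymphatic sums 10.4 to 19.01 CPM and 12.6 to 19.6 CPM. Fat markers summed to 0.751 (A1cf KO 588) to 184 CPM (A1cf KO 602) in the low series and to 15.9 to 124 CPM in the high series, a wide overlap. Their median log2 difference was 1.04 for series, with 4 of 5 positive, and 1.38 for genotype with the series as covariate, both larger than the endothelial medians of 0.56 and 0.26, and none of the 5 passed in either fit.

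Tubule markers were abundant, as in kidney. The proximal tubule sum was 34549 to 49955 CPM in the low series and 32811 to 49247 CPM in the high series, with 0 of 7 markers called and all 7 differences negative (median -0.20). Of these 7, 4 were lower at an unadjusted p under 0.05 by edgeR, a rule met by 18.4% of all genes in either direction. Thick ascending limb markers summed to 3587 to 5709 CPM and 4408 to 6941 CPM, with 1 of 5 higher in the high series (Egf, log2 0.40, adjusted p = 0.034). For genotype, all 5 of these were negative (median -0.32) and none passed. All 5 had an unadjusted p under 0.05 by edgeR, against 10.4% of all genes in either direction. Of 3 tested principal cell markers 0 passed for series. None of the listed markers of other cells was at 0 in all 12 libraries.

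**Figure D4:**
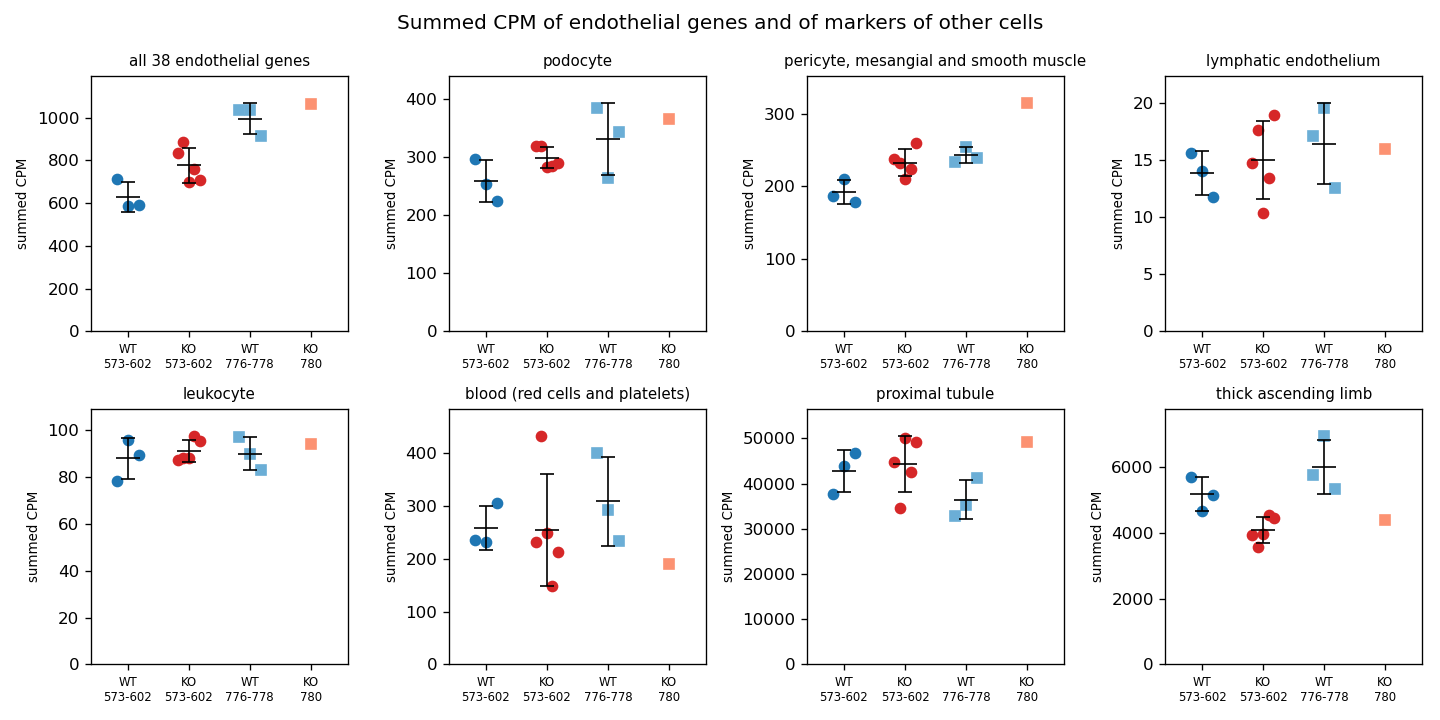
Summed CPM (y axis, from 0) of the 38 endothelial genes and of 7 lists of markers of other cells in each library, in the same sets, colours and mean ± SD as the plot of 8 genes. The endothelial sum is higher in all 4 high-series libraries (912 to 1066 CPM) than in any low-series library (586 to 887 CPM), while the other 7 sums overlap between the series.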

How the data were processed

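RNA was measured in 12 whole-kidney libraries. Tissue was frozen, total RNA was taken with miRNeasy and TruSeq libraries were built, per the labels' protocols. The values are read counts per gene name that the authors deposited, and per the file headers they counted exons with featureCounts 1.5.0-p2 and GENCODE M8, with no strand, pair or duplicate option. Per the submitters' processing notes STAR, DESeq2 and mm10 were used. Between 72.0% and 77.1% of counts from 1 to 19 were even, so reads of a pair may have been counted separately, and counting error is then larger than the counts show.

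Tests used edgeR 4.0.16 in R 4.3.3 (filterByExpr by genotype, TMM, quasi-likelihood F test, Benjamini-Hochberg over all genes tested, threshold 0.05), with DESeq2 1.42.0 and limma 3.58.1 as alternatives. The series model has genotype and series as terms, and the interaction was tested in a further fit. CPM use TMM-scaled library sizes, and RPKM divide them by the exon length in the deposited table. The number of animals limits the precision, and p-values set a difference between groups against the spread between these libraries. Other alternatives were other scalings and filters, only animals 573 to 602, only WT, and leaving out each library in turn. The fits were tested on simulated counts, where the genotype fit on 16702 genes recovered 56.2% of changes of 0.5 and 73.7% of changes of 1 on the log2 scale. The series fit on 16687 genes recovered 48.5% and 76.3%. The counts simulated for the genotype fit held no series difference, and their spread was estimated with series in the model. That recovery therefore does not carry over to the genotype fit without a covariate for genes that differ by series. Members and gene lists were chosen with earlier results of these data known. All members are named, and of each partner list the genes past the threshold and the 3 with the smallest genotype p. Promoters are from RefSeq (GRCm38.p6) and were matched by symbol. No sample was left out.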

Additional observations from a re-analysis of the deposited data

Results flagged for a closer look

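In 12 of 76 groups (38 genes in 2 genotypes), 1 library lay far from the other 5 of its genotype by Dixon's test at the 95% level, a rule met by 6.91% of such groups over all genes tested (chance alone flags about 1 in 20 where a group's libraries are alike, and the genotypes here mix 2 series). In 9 of them the library was A1cf KO 780, the only A1cf KO kidney of the high series, and it was the highest each time: Flt1 (64.3 CPM, next 38.9), Cdh5 (27.9, next 20.6), Notch4 (37.1, next 19.5), Ednrb (38.8, next 20.8) and S1pr1 (28.1, next 16.6). The same held for Ramp2 (13.2, next 8.20), Ehd3 (32.6, next 22.2), Cd93 (37.9, next 23.3) and Ptprb (65.3, next 46.7). Over all genes tested, A1cf KO 780 stood this far above the other A1cf KO libraries for 1.52%, and for the 38 genes it did so for 23.7%. Without this library the series test compared only WT kidneys, and it called 13 of the 38 genes and 0.683% of all genes higher.

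The other 3 were Vwf in WT 777 (7.28 CPM, next 3.87), Vwf in A1cf KO 602 (6.67 CPM, next 4.22) and Cldn5 in A1cf KO 584 (9.49 CPM, next 7.14).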

How the results depend on the processing

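For genotype, 0 of the 38 genes passed under any of 21 alternatives. The count over all genes was 24 with the series covariate and 170 by DESeq2 against 8, and 6 to 12 when 1 library was left out. The genotype median of the 38 genes lay between -0.05 and 0.14 when 1 library was omitted, but reached 0.26 once series was a covariate and 0.32 in the low series alone. Of the 38 genes, 24 changed sign in some of the 21 alternatives, these fits included.

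For series, 13 of the 21 genes called passed in all 20 alternatives, and 5 others passed in some. The sign changed only for Aplnr, Gja4, Gja5 and Myct1, none of them called. Leaving out 1 library gave 13 (without A1cf KO 780) to 25 of the 38 genes and 140 (without A1cf KO 780) to 696 of all genes, against 490. Over all genes there were 262 without WT 590, 261 without WT 776, 308 without WT 777, 121 in WT alone and 1094 by DESeq2. The members called were 15 in WT alone, 26 by DESeq2 and 21 with halved counts, an alternative added after seeing the data. The series median ran from 0.55 to 0.66. Fits on fewer libraries hold fewer animals, and the cause of the other shifts was not tested. No paired analysis was possible because the labels name no litters or pairs of animals. With 1 A1cf KO library in the high series, series and genotype are separated mainly by the WT kidneys.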
